A study of Homo sapiens with 6 samples.

Results

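The HOX genes lie in 4 clusters, HOXA on chromosome 7, HOXB on chromosome 17, HOXC on chromosome 12 and HOXD on chromosome 2, and their transcripts were read by array in the human cell line INA-6, derived from multiple myeloma (MM), after treatment with an EZH2 inhibitor or its inactive control. The members were the rows of the array table whose annotated symbols include HOXA, HOXB, HOXC or HOXD followed by a number. This gave 37 of 65529 rows, with 10 rows of HOXA, 9 of HOXB, 10 of HOXC and 8 of HOXD. They named 38 HOX genes. A single symbol was given for 33 rows, and 4 rows were shared by several symbols, so that their signal cannot be assigned to 1 gene. These were the rows of HOXA9 with MIR196B and HOXA10-HOXA9, of HOXB3 with HOXB4 and MIR10A, of HOXD3 with HOXD4 and MIR10B, and of HOXC4 with HOXC5 and HOXC6, the last in addition to a row for each of these HOXC genes.

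In 3 cultures the cells received UNC1999, which inhibits EZH2, and in 3 they received UNC2400, the inactive compound, with 1 array per culture. All 6 cultures held the same cell line grown with interleukin-6, received 1 μM of compound for 120 hours with a change of medium and reagents at 72 hours, and had been seeded at 100000 cells per mL. UNC2400 is the control in the labels and DMSO in the text of the study; the labels were followed. Replicates are labelled biological, but INA-6 is 1 cell line, so the spread is that between cultures. Row identifiers have the form of exon regions (33960 rows) or exon junctions (31569 rows), although most HOX genes have 1 row, and the sources used here do not settle whether a row stands for a whole gene or a piece of it. Values are log2 expression values, and a difference is UNC1999 minus UNC2400 on that scale.

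HOX genes encode homeodomain transcription factors that give the cells of the embryo their position along the body axis. Within a cluster the genes are ordered by paralogue number, low numbers acting toward the head and high numbers toward the tail. EZH2 is the enzyme of Polycomb repressive complex 2 (PRC2), the writer of the H3K27me3 mark, and the silent HOX clusters are the classic Polycomb targets, known as such from fly genetics and from mammalian cells. In blood, HOXA and HOXB genes are active in stem and progenitor cells and decline as the cells mature.

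The median log2 value of the arrays lay between 4.83 and 4.86, and their number limits the precision. Of 12 plasma cell markers, 11 lay above the median level of all rows, and CD27 lay below it. Of these markers 9 fell and 1 rose with UNC1999, with a median of -0.94, where 9.39% of all rows passed in either direction and 4.99% as higher (adjusted p under 0.05 in limma). The part of this shift in the HOX values was not tested. Of 28 measured markers of T cells, myeloid, stromal and epithelial cells, 2 rose, CD3E by 0.30 and KRT18 by 0.43, with medians of these 4 lists between 0.018 and 0.027. Above the median level lay 4 of 7 T cell, 2 of 8 myeloid, 5 of 7 stromal and 4 of 6 epithelial markers. A level above the median therefore does not by itself show that a gene is expressed. In the stromal list, a cell type that expresses HOX genes, 0 of 7 markers passed in limma (1 at an unadjusted p under 0.05). That marker was THY1, higher by 0.20 with separated groups (interval 0.09 to 0.32, limma, adjusted p = 0.0546). In bulk RNA a change in the number of cells of a type and a change in RNA per cell cannot be told apart. EZH2 mRNA was at 7.95, 8.03 and 8.14 with UNC1999 and at 7.87, 7.89 and 7.79 with UNC2400, a difference of 0.19 (limma, adjusted p = 0.099). The study reports the opposite direction, lower EZH2 mRNA with UNC1999, from quantitative PCR in MM cell lines with DMSO as control. The method and the named control differ from those of the arrays, and the cause of the discrepancy was not tested.

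The HOX rows barely moved when EZH2 was inhibited. Of 37 rows, 1 passed an adjusted p of 0.05 in limma, HOXB7, which was higher with UNC1999, and none was lower. Over all rows of the array 9.39% passed in either direction and 4.99% passed as higher, so the HOX share was not above the background. No HOX row combined a limma p of 0.02 or less with a 1.5-fold change, the study's own criteria, which 1.64% of all rows met. The 95% interval of no HOX difference extended to a 1.5-fold change (0.585 on the log2 scale) in either direction. The widest reach was that of HOXC13, up to 0.38 or 1.30-fold, and on the negative side that of HOXB13, down to -0.26. These bounds are on the scale of the array signal. Log2 values near the background compress folds and understate a change. Of the 37 rows, 12 lay below the median level of all rows. The other HOX rows may also lie near the background, since markers of other cell types lay above that median too (4 of 7 for T cells, 5 of 7 for stromal cells).

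The small differences nevertheless pointed one way. The difference was above 0 in 36 of 37 HOX rows, the exception being HOXB13, against 58.4% of all rows, and the median was 0.046 for HOX rows and 0.0076 for all rows. This lean was not particular to HOX rows. Above 0 lay 7 of 7 T cell, 6 of 6 epithelial, 7 of 8 myeloid and 6 of 7 stromal markers. So did 16 of 19 noncoding transcripts of the clusters, against 12 of 18 genes flanking the clusters and 1 of 12 plasma cell markers. The HOX rows share the arrays and are not independent. In 8 HOX rows all 3 UNC1999 arrays lay above all 3 UNC2400 arrays. These were the rows of HOXB6, HOXB7, HOXC6, HOXC9, HOXD1, HOXD8 and HOXD11 and the row shared by HOXC4, HOXC5 and HOXC6. The same 8 had an unadjusted p under 0.05, in a direction that 12.7% of all rows showed at that p. The background of such separation was 16.7% of all rows, while 11.0% of all rows were separated in the opposite direction, as was no HOX row (limma, none lower at an unadjusted p under 0.05).

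**Figure D1:**
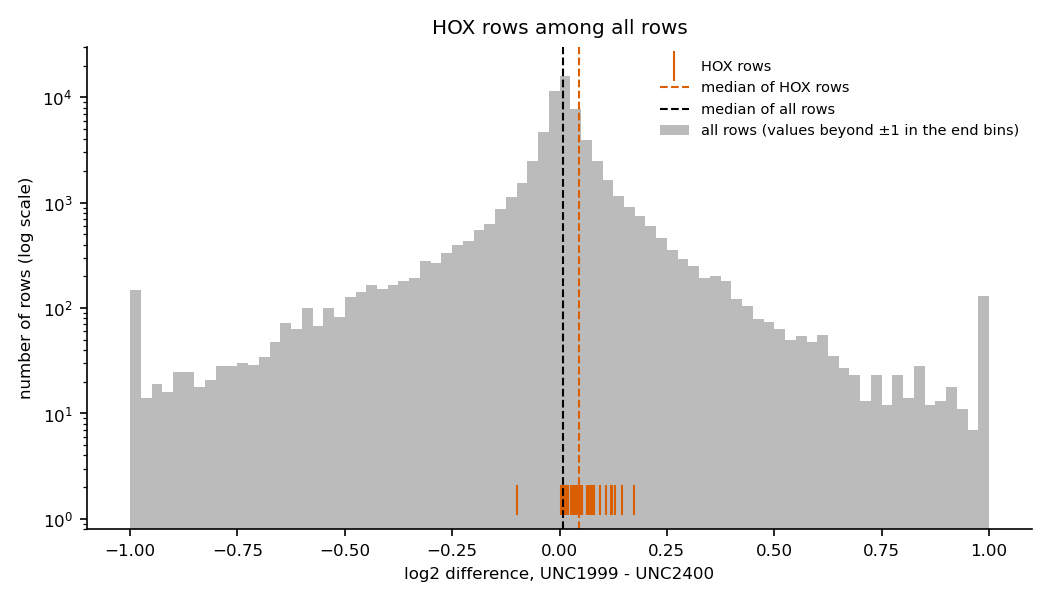
Number of rows (vertical axis, log scale) by log2 difference, UNC1999 minus UNC2400 (horizontal axis), for all 65529 rows in grey, with the 37 HOX rows as orange ticks and both medians as dashed lines. The HOX rows lie between -0.10 and 0.17, in the centre of the distribution, with their median at 0.046 and that of all rows at 0.0076.

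The HOX rows rose and fell together from array to array. Their mean was 5.14, 5.12 and 5.06 on UNC1999 replicates 1, 2 and 3 and 5.03, 5.06 and 5.07 on UNC2400 replicates 1, 2 and 3, so the groups overlapped through UNC1999 replicate 3. Within its group, UNC1999 replicate 3 was the lowest array in 32 of 37 rows and UNC1999 replicate 1 the highest in 25. Among UNC2400 arrays, replicate 1 was the lowest in 24 rows and replicate 3 the highest in 19. The share of all rows lowest or highest on these arrays was not computed. UNC1999 replicate 3 and UNC2400 replicate 1 also had the lowest median of all rows in their groups. The highest median of all rows lay on replicate 2 in both groups, not on the arrays most often highest in HOX rows. Whether these counts are particular to HOX rows was therefore not tested. Between equally numbered arrays, UNC1999 was the higher in 37 of 37 rows for replicate 1, in 32 for replicate 2 and in 16 for replicate 3.

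Over all rows, the differences between equally numbered arrays fell in the same order, although those arrays share only a number. For replicates 1, 2 and 3, 62.8%, 58.3% and 44.3% of all rows were higher with UNC1999, with median differences of 0.019, 0.012 and -0.0069. The single arrays had another order than in the HOX means. Their median over all rows was 4.854, 4.858 and 4.835 on UNC1999 replicates 1, 2 and 3. On UNC2400 replicates 1, 2 and 3 it was 4.832, 4.851 and 4.846. With cyclic loess normalization, which took the median difference of all rows to -0.0001, the HOX median was 0.032 and 34 of 37 rows stayed above 0.

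**Figure D2:**
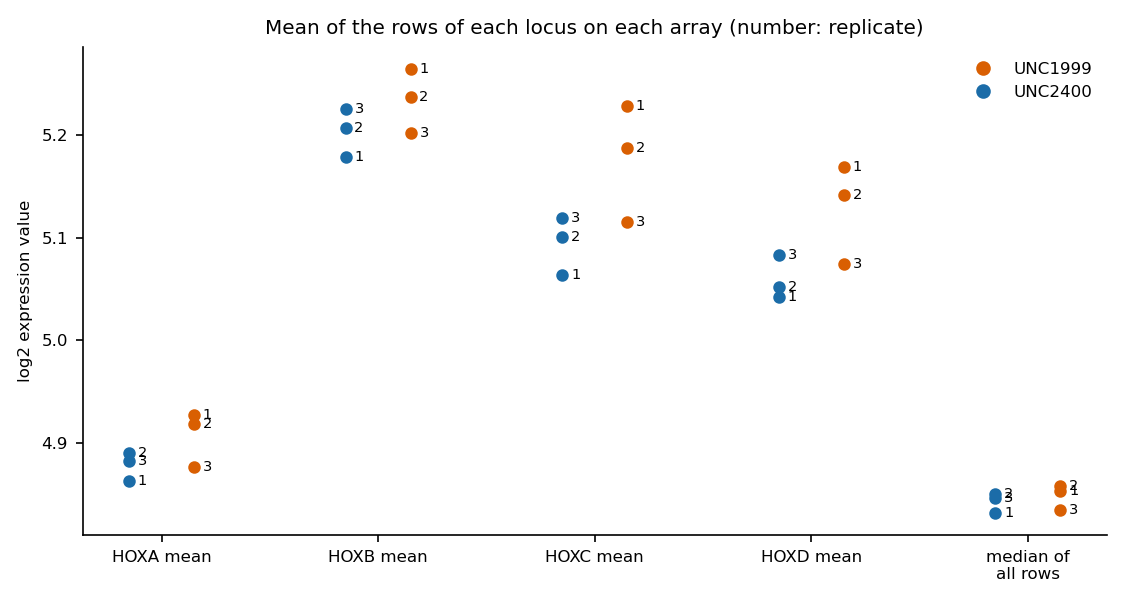
Mean log2 value of the rows of each locus on each array, with the median of all rows at the right; points are arrays and numbers are replicates. In every locus UNC1999 replicates 1 and 2 lie above the UNC2400 arrays and UNC1999 replicate 3 lies among them.

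In HOXA all 10 rows lay above 0, between 0.0074 (HOXA2, a hindbrain gene) and 0.065 (HOXA7). Their median was 0.028, and it was 0.012 with cyclic loess normalization, 0.018 with quantile normalization, and 0.015, 0.018 and 0.017 without UNC1999 replicate 1, UNC1999 replicate 2 and UNC2400 replicate 1. None passed in limma, and none had an unadjusted p under 0.05. HOXA7 was at 5.21, 5.16 and 5.06 with UNC1999 and at 5.07, 5.11 and 5.06 with UNC2400 (interval -0.03 to 0.16, adjusted p = 0.449). HOXA5, a gene of lung development in the mouse, was at 4.93, 4.93 and 4.89 with UNC1999 and at 4.85, 4.86 and 4.89 with UNC2400 (interval -0.002 to 0.11). Both genes overlapped between the groups.

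The row shared by HOXA9, a gene of blood progenitors that is active in many myeloid leukaemias, was at 5.05, 5.07 and 5.03 with UNC1999 and at 5.01, 5.02 and 5.04 with UNC2400. Its interval was -0.02 to 0.07, and the groups overlapped. HOXA6 varied more among cultures than between the compounds, from 5.65 to 5.80 with UNC1999 and from 5.63 to 5.76 with UNC2400. HOXA3, HOXA4 and HOXA11 differed by 0.015, 0.030 and 0.034. HOXA10 and HOXA13, both below the median level, differed by 0.010 and 0.0081.

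HOXB held the only row that passed. HOXB7, a paralogue of the central part of the cluster, was at 6.20, 6.16 and 6.21 with UNC1999 and at 6.05, 6.04 and 6.10 with UNC2400. The groups did not overlap, and the difference was 0.12 (95% interval 0.06 to 0.18), a 1.09-fold rise with an adjusted p of 0.0334 in limma. This call was lost in 5 of the 6 fits that left out 1 array (adjusted p from 0.0433 to 0.112, kept only without UNC2400 replicate 3), and with cyclic loess normalization (adjusted p = 0.0981), median centring (0.058), dim rows left out (0.0616) and an intensity trend (0.127). It was kept with quantile normalization (adjusted p = 0.042). HOXB6, its neighbour, was at 4.88, 4.91 and 4.83 with UNC1999 and at 4.79, 4.81 and 4.81 with UNC2400, a separated but smaller difference of 0.071 (limma, adjusted p = 0.198).

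At the far end of the cluster HOXB13, a gene of the prostate and the hindgut, was the only HOX row with a negative difference. It was at 5.20, 5.08 and 5.03 with UNC1999 and at 5.10, 5.22 and 5.28 with UNC2400, a difference of -0.10 (interval -0.26 to 0.06), with overlapping groups and an adjusted p of 0.469 in limma. HOXB1, HOXB2, HOXB5, HOXB8 and HOXB9 and the row shared by HOXB3 and HOXB4 differed by 0.018 to 0.042. HOXB9 turned its sign with quantile and cyclic loess normalization and without UNC1999 replicate 1. The median of the locus was 0.036.

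HOXC held the 2 largest differences, those of HOXC9 and HOXC6. HOXC9, a gene of the thoracic segments, was at 5.80, 5.75 and 5.62 with UNC1999 and at 5.58, 5.53 and 5.54 with UNC2400. All UNC1999 arrays were the higher, and the difference was 0.17 (interval 0.05 to 0.29, limma, adjusted p = 0.0917). HOXC6, likewise a thoracic gene, was at 5.36, 5.46 and 5.35 with UNC1999 and at 5.21, 5.30 and 5.22 with UNC2400, again without overlap (difference 0.15, limma, adjusted p = 0.0959).

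The row shared by HOXC4, HOXC5 and HOXC6 was at 5.57, 5.48 and 5.48 with UNC1999 and at 5.37, 5.38 and 5.42 with UNC2400, without overlap (difference 0.12, limma, adjusted p = 0.0865). The rows of HOXC4 and HOXC5 alone differed by 0.048 and 0.049, with overlapping groups. Their intervals overlapped that of the shared row, and the differences between these rows were not tested. HOXC9 passed without UNC1999 replicate 3 (limma, adjusted p = 0.0122).

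Toward the end of the cluster the replicates disagreed. HOXC13, a gene of hair and nails, was at 5.50, 5.23 and 5.12 with UNC1999 and at 5.06, 5.33 and 5.18 with UNC2400 (interval -0.19 to 0.38), and its difference of 0.093 turned to -0.016 without UNC1999 replicate 1. HOXC12 was at 5.66, 5.73 and 5.54 with UNC1999 and at 5.51, 5.52 and 5.76 with UNC2400. HOXC10, HOXC11 and HOXC8 differed by 0.065, 0.015 and 0.069. Over the 10 rows the median was 0.067, and 0 passed in limma (3 at an unadjusted p under 0.05).

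**Figure D3:**
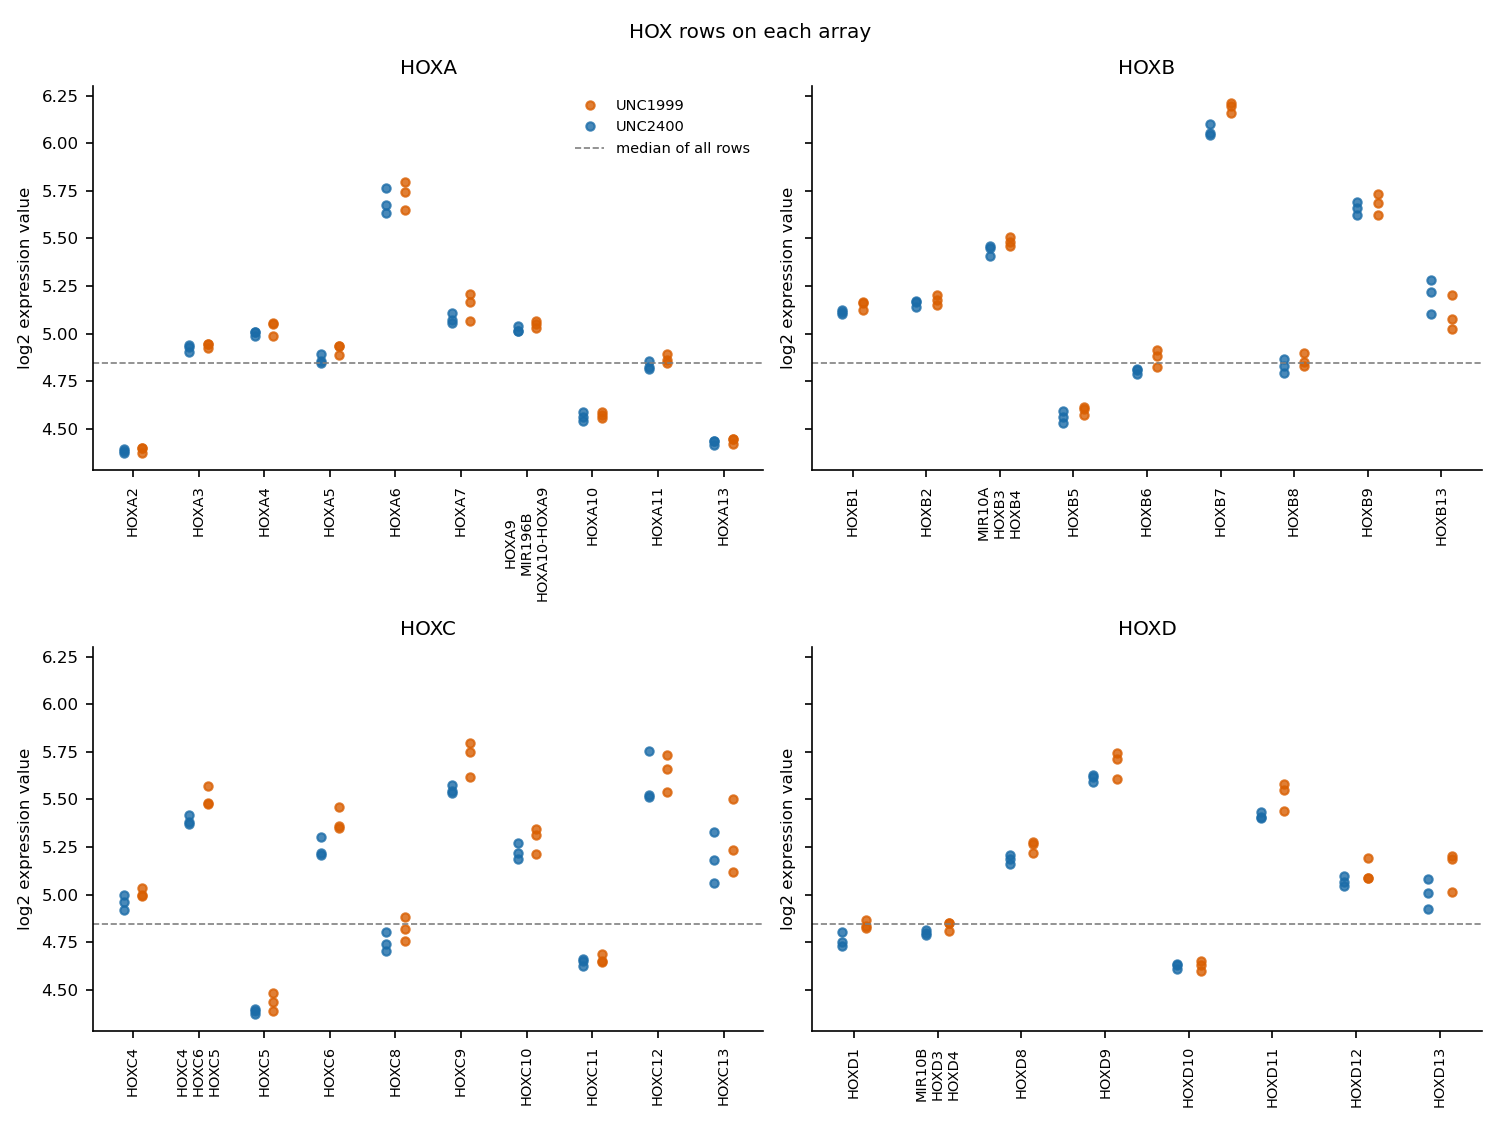
Log2 expression value (vertical axis) of each of the 37 HOX rows, ordered by paralogue number within each locus; each point is 1 array, 3 per compound, and the dashed line is the median level of all rows. The groups are apart in 8 rows, HOXB7 and HOXC9 among them, and HOXC13 spreads from 5.06 to 5.50.

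HOXD had a median of 0.072, beside 0.067 in HOXC, an order that turned with quantile and cyclic loess normalization, with dim rows left out, and without UNC1999 replicate 3, UNC2400 replicate 2 or UNC2400 replicate 3. In limma 0 of its 8 rows passed (3 at an unadjusted p under 0.05). HOXD13, a gene of the digits, was at 5.20, 5.19 and 5.01 with UNC1999 and at 4.92, 5.01 and 5.08 with UNC2400 (difference 0.13, interval -0.03 to 0.29). HOXD11, a gene of the forearm and kidney in the mouse, was at 5.58, 5.55 and 5.44 with UNC1999 and at 5.40, 5.41 and 5.43 with UNC2400. Its groups were just separated, with a difference of 0.11 (limma, adjusted p = 0.18).

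HOXD8 was at 5.28, 5.27 and 5.22 with UNC1999 and at 5.21, 5.16 and 5.19 with UNC2400, a difference of 0.068. HOXD1 was at 4.87, 4.84 and 4.82 with UNC1999 and at 4.75, 4.73 and 4.80 with UNC2400, a difference of 0.081, and was chosen for its separation after its values were seen. Both were separated, and neither passed in limma (adjusted p = 0.164 and 0.134). HOXD9 was at 5.74, 5.71 and 5.61 with UNC1999 and at 5.59, 5.63 and 5.62 with UNC2400, and passed, as HOXD11 did, only without UNC1999 replicate 3 (limma, adjusted p = 0.0436 and 0.0223). HOXD10 differed by 0.0032 (interval -0.05 to 0.05), the difference nearest to 0 among the 37 rows, and its sign turned in 5 of the alternative settings. HOXD12 and the row shared by HOXD3 and HOXD4 differed by 0.052 and 0.035.

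Polycomb complexes of mammals favour promoters rich in the dinucleotide CG. RefSeq promoters, from 250 bases before to 50 after a gene start in GRCh38.p14, were at hand for 20 of the 38 HOX genes, with 27 starts. They held a median of 22 CG dinucleotides in 300 bases (from 0 at a start of HOXA3 to 44 at HOXA13) against a median of 14 for all 35116 promoters, although their share of G and C was alike (58.0% against 58.7%). The ratio of CG observed to CG predicted from base content was 0.849 and 0.579. The 28 promoters of the genes flanking the clusters lay between, with a median of 18.5 CG and a ratio of 0.717. The starts of HOXC4 and HOXC5 in that table are the same window.

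The promoters of the 3 separated HOXD genes are shown with that of HOXD10, whose difference was nearest to 0, each 5′ to 3′ on the plus strand of chromosome 2 with every CG in capitals, a choice made after the values were seen. They lie at chr2:176188418-176188717 (HOXD1), chr2:176129455-176129754 (HOXD8), chr2:176107030-176107329 (HOXD11) and chr2:176116528-176116827 (HOXD10).
HOXD1: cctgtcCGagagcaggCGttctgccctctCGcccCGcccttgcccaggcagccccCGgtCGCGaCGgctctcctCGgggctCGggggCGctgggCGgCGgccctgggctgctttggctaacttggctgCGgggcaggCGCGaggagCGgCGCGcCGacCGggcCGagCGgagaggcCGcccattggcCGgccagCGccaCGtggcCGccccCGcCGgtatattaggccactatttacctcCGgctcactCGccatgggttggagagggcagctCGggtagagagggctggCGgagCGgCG
HOXD8: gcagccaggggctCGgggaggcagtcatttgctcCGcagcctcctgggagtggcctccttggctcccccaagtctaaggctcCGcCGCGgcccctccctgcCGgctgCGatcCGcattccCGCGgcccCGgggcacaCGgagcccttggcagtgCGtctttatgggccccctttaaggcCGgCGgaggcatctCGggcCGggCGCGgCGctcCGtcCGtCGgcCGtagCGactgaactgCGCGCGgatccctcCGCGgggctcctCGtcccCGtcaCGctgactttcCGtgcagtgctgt
HOXD11: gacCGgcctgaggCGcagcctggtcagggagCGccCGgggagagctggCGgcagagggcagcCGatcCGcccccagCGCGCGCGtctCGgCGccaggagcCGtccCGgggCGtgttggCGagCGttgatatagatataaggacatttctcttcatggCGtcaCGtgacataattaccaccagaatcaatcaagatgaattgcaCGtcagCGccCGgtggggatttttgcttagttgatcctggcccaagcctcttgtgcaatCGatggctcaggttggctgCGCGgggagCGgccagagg
HOXD10: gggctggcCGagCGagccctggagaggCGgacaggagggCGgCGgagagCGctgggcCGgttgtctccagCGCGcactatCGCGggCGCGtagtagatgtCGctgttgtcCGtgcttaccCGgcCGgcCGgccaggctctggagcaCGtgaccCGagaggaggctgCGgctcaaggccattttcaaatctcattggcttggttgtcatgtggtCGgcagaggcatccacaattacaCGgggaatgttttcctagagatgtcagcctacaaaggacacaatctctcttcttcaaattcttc
They held 36, 34, 27 and 23 CG dinucleotides, and at least as many were found in 12.7%, 15.6%, 28.2% and 35.8% of all promoters. The HOXD promoters at hand but not shown, of HOXD13, HOXD12, HOXD3 and HOXD4, held 24, 19, 25 and 4. HOXD13 had the largest difference of the locus (0.13), HOXD12 differed by 0.052 and the row of HOXD3 and HOXD4 by 0.035. Whether the CG count goes with the difference was not tested. The letters TATAAA, searched on both strands, were in none of the 4 windows shown, in 18.5% of the 27 HOX windows and in 11.5% of all promoters. Both searches describe the windows only.

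Read across the clusters by paralogue number, the rows starting with paralogues 1 to 3 had a median difference of 0.035 (7 rows), those with 4 to 8 had 0.059 (14 rows) and those with 9 to 13 had 0.040 (16 rows). Of the 8 separated rows, 1, 5 and 2 fell in these classes. The rows of a cluster share arrays and neighbours, so these medians carry no test.

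Of 19 noncoding transcripts of the clusters with a row of their own, 0 passed in limma (1 at an unadjusted p under 0.05, HOXC13-AS), where 9.39% of all rows passed. Their median was 0.032. HOTAIR, a long noncoding RNA of the HOXC cluster known for binding PRC2, was at 5.66, 5.70 and 5.65 with UNC1999 and at 5.61, 5.61 and 5.68 with UNC2400 (limma, adjusted p = 0.59). HOTTIP, transcribed from the 5′ end of HOXA and known for recruiting MLL complexes, differed by 0.030. HOXC13-AS, antisense to HOXC13, was at 5.24, 5.18 and 5.25 with UNC1999 and at 5.12, 5.17 and 5.14 with UNC2400, just separated (limma, adjusted p = 0.145).

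MicroRNAs of the miR-196 family lie inside 3 of the clusters and are known to target HOX mRNAs. The mature sequences are shown because they tie the clusters together, with the seed, bases 2 to 8, in capitals. MIR196A1 of the HOXB cluster (chr17:48632532-48632553, minus strand) and MIR196A2 of the HOXC cluster (chr12:53991762-53991783, plus strand) give the same mature miRNA, and MIR196B of the HOXA cluster (chr7:27169528-27169549, minus strand) differs from it by A12C, counted from the 5′ end, outside the shared seed.
hsa-miR-196a-5p: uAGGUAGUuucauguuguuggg
hsa-miR-196b-5p: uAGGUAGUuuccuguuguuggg
The array rows report the genes of these miRNAs and not the mature form. MIR196A1, MIR196A2 and MIR196B differed by 0.041, 0.018 and 0.048, and MIR615 of the HOXC cluster by 0.033, with adjusted p from 0.432 to 0.838 in limma.

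Among 18 measured genes that flank the clusters, 3 rose and 3 fell, 12 did not pass, and the median was 0.023, beside 9.39% of all rows that passed. Above the median level of all rows lay 15 of the 18, and with rows below that level left out 20.6% of rows passed. SKAP1, an adaptor of lymphocyte signalling next to HOXB1, was at 6.76, 6.70 and 6.81 with UNC1999 and at 6.49, 6.44 and 6.47 with UNC2400, a rise of 0.29 (limma, adjusted p = 0.0066). CALCOCO2, an autophagy receptor at the other side of HOXB beyond HOXB13, was at 5.95, 5.96 and 6.01 against 6.39, 6.31 and 6.27, a fall of -0.35 (limma, adjusted p = 0.00459). Its paralogue CALCOCO1, beyond HOXC13, rose by 0.18 (limma, adjusted p = 0.0071). The groups were separated in all 3 genes.

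SNX10 and SKAP2 near HOXA differed by 0.093 and -0.13 and LNPK near HOXD by -0.17, with adjusted p between 0.0408 and 0.0452 in limma. These 3 calls were lost in 5 or more of the 6 fits with 1 array left out, and with median centring. SNX10 kept its call in none of them, SKAP2 only without UNC1999 replicate 3, and LNPK only without UNC1999 replicate 3. EVX1 and EVX2, homeobox genes at the ends of HOXA and HOXD, differed by 0.014 and 0.044.

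**Figure D4:**
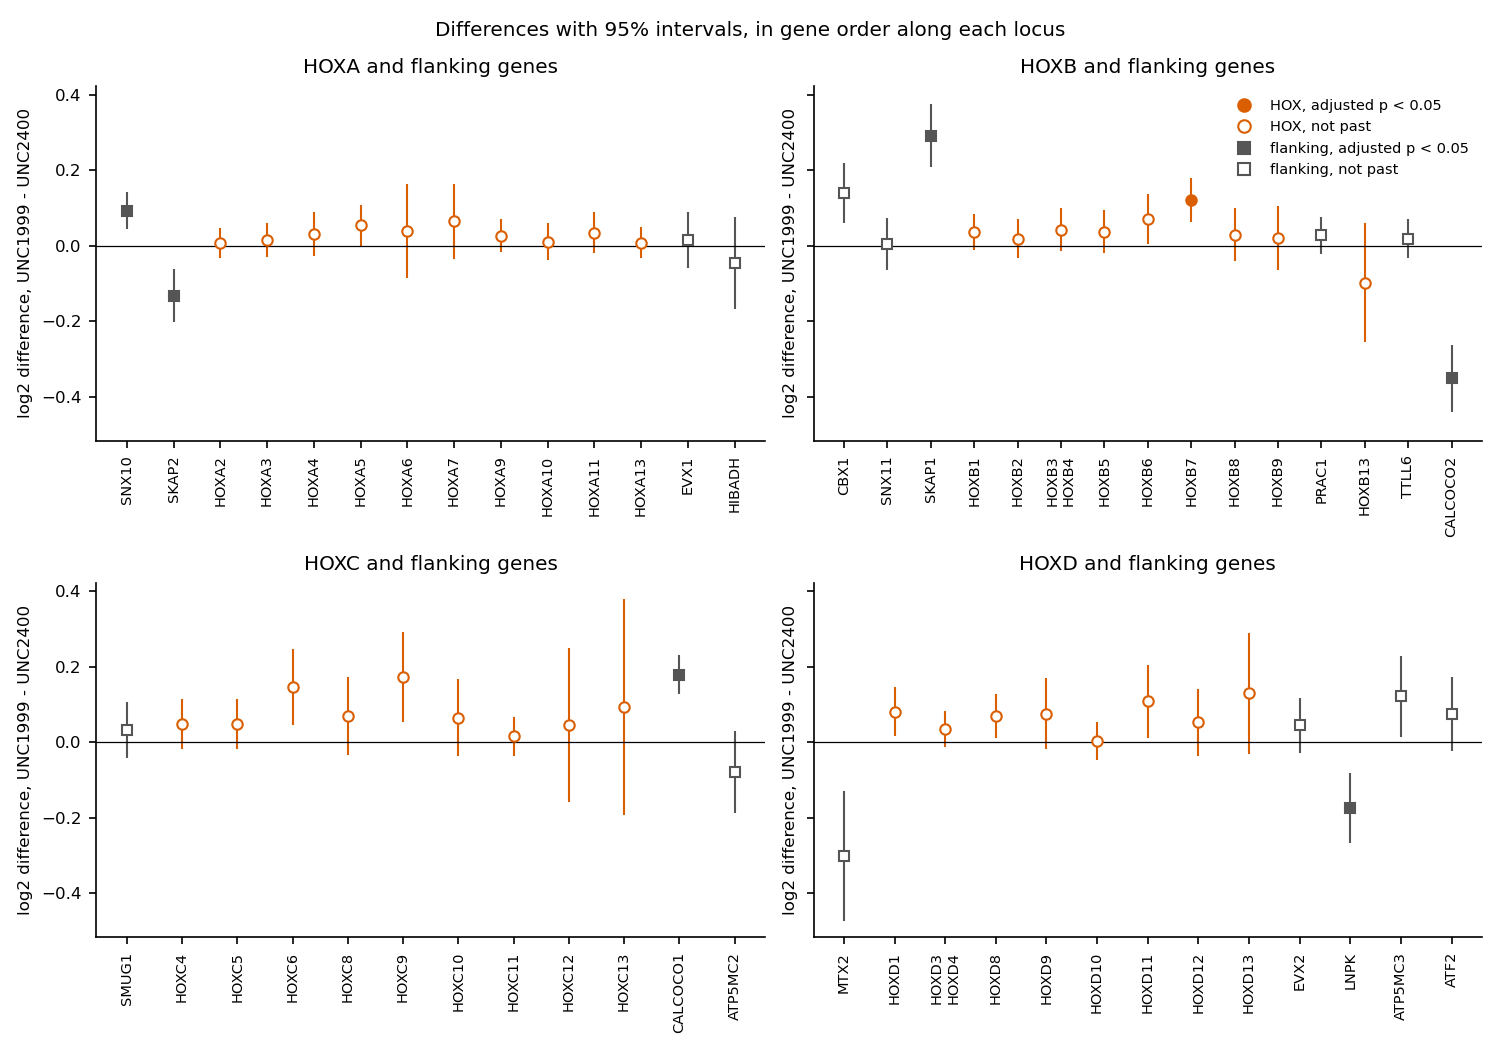
Log2 difference with its 95% interval (vertical axis) for HOX rows (orange circles) and flanking genes (grey squares) in gene order along each locus, low paralogue numbers at the left; filled symbols passed an adjusted p of 0.05. HOXB7 is the only filled circle, and the flanking genes reach from -0.35 (CALCOCO2) to 0.29 (SKAP1). Spacing is not to scale, and the row shared by HOXC4, HOXC5 and HOXC6 is left out.

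TALE homeodomain proteins (PBX, MEIS and PKNOX) bind DNA together with HOX proteins. Of 8 measured, 3 rose, none fell and 5 did not pass, with a median of 0.099, beside 4.99% of all rows that passed as higher. All 8 lay above the median level of all rows. With rows below that level left out, 20.6% of rows passed in either direction. PBX3, a cofactor of HOXA9 in leukaemia, was at 5.90, 5.95 and 5.97 with UNC1999 and at 5.26, 5.22 and 5.25 with UNC2400. The groups lay far apart, and the rise was 0.70 (interval 0.64 to 0.76), 1.63-fold with an adjusted p of 0.000576 in limma.

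PBX2 was at 7.80, 7.90 and 7.84 with UNC1999 and at 7.29, 7.21 and 7.29 with UNC2400, a rise of 0.58 (limma, adjusted p = 0.00147). The array holds 7 rows for PBX2, a gene of the MHC, and they showed rises from 0.54 to 0.58. Some of these rows held the same or nearly the same values on every array, so they are not separate measurements. Leaving out any 1 array kept both calls, with a highest adjusted p of 0.00645 for PBX3 and 0.0101 for PBX2 (limma). PKNOX1 was higher by 0.15 (limma, adjusted p = 0.0228), a call kept only without UNC1999 replicate 3 or UNC2400 replicate 1 when 1 array was left out, and lost with cyclic loess normalization, median centring and an intensity trend (adjusted p up to 0.0769). MEIS1 and MEIS2 differed by 0.025 and -0.0041.

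**Figure D5:**
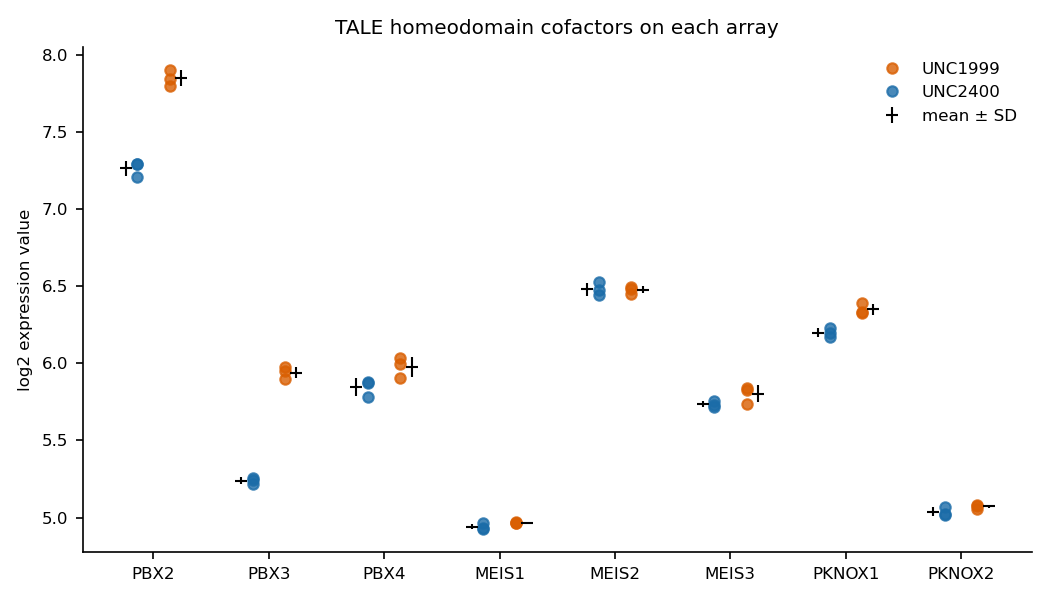
Log2 expression value (vertical axis) of the 8 measured TALE cofactors on each array (points, 3 per compound) with mean ± SD of each group (black). PBX3 and PBX2 differ by 0.70 and 0.58, MEIS1 and MEIS2 by 0.025 and -0.0041.

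Of 19 measured Trithorax and MLL genes, 2 rose, 1 fell and 16 did not pass, with a median of 0.055, beside 9.39% of all rows that passed. All 19 lay above the median level of all rows, and with rows below that level left out 20.6% of rows passed. SETD1B, a methyltransferase of H3K4, was at 6.97, 6.92 and 6.92 with UNC1999 and at 6.57, 6.50 and 6.66 with UNC2400 (limma, adjusted p = 0.00712). ASH2L, a subunit shared by these complexes, was higher by 0.22 and AFF1, a subunit of the elongation complex, lower with a difference of -0.23 (limma, adjusted p = 0.0202 and 0.0186). With 1 array left out ASH2L kept its call only without UNC2400 replicate 1, and AFF1 only without UNC1999 replicate 3 or UNC2400 replicate 2.

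KMT2A, the MLL gene itself, differed by 0.18 without passing (limma, adjusted p = 0.173). Of 19 retinoid and caudal regulators, 1 rose, KAT6B, an acetyltransferase, from 6.42 ± 0.07 to 6.82 ± 0.06 (SD, n = 3 each, limma, adjusted p = 0.00805), beside 4.99% of all rows that passed as higher. The retinoic acid receptors RARA, RARB and RARG and the caudal genes CDX1, CDX2 and CDX4, inducers of HOX genes in the embryo, did not pass. Among them RARG came nearest, with separated groups and a difference of 0.21 (interval 0.09 to 0.33, limma, adjusted p = 0.0522). The others differed by -0.0061 (CDX2) to 0.16 (RARA).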

How the data were processed

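RNA of INA-6 cells was hybridised to Affymetrix arrays, 1 per culture. The authors deposited log2 values, 1 per row and array, and analysed them in GeneSpring 13. How rows were summarised and normalized, and on which build, is not given in the sources used here. Rows were named through the annotation of the platform (23129 rows with 1 symbol, 1221 with several, 41179 with none), with symbols updated through the RefSeq table of GRCh38 (2540 updated). The identifiers of rows have the form of exon regions or junctions, so a row may not stand for the whole gene. Row signals are not calibrated between genes, so a level is given only as above or below the median of all rows, which is a rough guide, and levels of different genes were not set against each other.

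Differences were tested across all 65529 rows with limma (version 3.58.1, R 4.3.3), lmFit and eBayes. The model held the compound alone, tests were two-sided, and p-values were adjusted over all rows (Benjamini-Hochberg, threshold 0.05). The fit was tested on simulated data. Alternatives were quantile, cyclic loess and median scaling, dim rows left out, an intensity trend, a replicate block, the study's criteria and each array left out.

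HOX genes, related lists (1 row per gene, the brightest; shared rows left out) and tests were chosen with earlier results of these data known. The rule for names took HOX rows that passed, the 2 largest differences per locus that did not, HOX rows above the median level, up to 4 genes that passed per related list, and EZH2. Of the 6 flanking genes that passed, all are named. Others named were chosen after their values were seen. Sequences are from RefSeq (GRCh38.p14).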

Additional observations from a re-analysis of the deposited data

How the results depend on the processing

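The HOX median stayed above 0 in each setting tried, between 0.032 (cyclic loess) and 0.052 (rows below the median level left out) and between 0.028 and 0.068 with 1 array left out. The medians by locus also stayed above 0, and moved by more than the spread between replicates once, in HOXC without UNC1999 replicate 3 (0.102; from 0.0384 to 0.102 with 1 array left out). The number of HOX rows that passed was 1 as reported, 1 with quantile normalization (HOXB7) and 1 with the replicate number as a block (HOXC6 in place of HOXB7), and 0 with cyclic loess, median centring, an intensity trend, dim rows left out (25 HOX rows kept) and the thresholds of the study. The share of all rows that passed was 9.39% as reported, 10.4% with quantile normalization, 9.83% with cyclic loess and 8.69% with median centring. It was 6.5% with the block, 9.49% with an intensity trend, 20.6% with dim rows left out and 1.64% at the thresholds of the study. Leaving out 1 array gave 0 to 3 HOX rows, where 4.45% to 9.94% of all rows passed. The 3 were HOXC9, HOXD9 and HOXD11 in the absence of UNC1999 replicate 3, and HOXB7 alone passed without UNC2400 replicate 3. With the block HOXC6 had an adjusted p of 0.0407 and HOXB7 of 0.059 (limma). The sign turned for HOXB9 (-0.0019 with quantile, -0.0098 with cyclic loess) and HOXD10 (-0.0005 with quantile, -0.0026 with cyclic loess, -0.0025 with median centring), and with 1 array left out for HOXD10 (-0.0091 without UNC1999 replicate 2, -0.0048 without UNC2400 replicate 1), HOXA10 (-0.002 without UNC2400 replicate 1) and, over all such fits, HOXB9 (-0.0061 to 0.0476), HOXC13 (-0.0161 to 0.1765) and HOXC12 (-0.0002 to 0.1244). The cause was not tested.

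Among the related lists, the flanking genes had 3 calls with median centring and with the block and 0 at the thresholds of the study (3 to 7 with 1 array left out). Trithorax and MLL genes had 5 with quantile normalization, 1 with the block and 0 at the thresholds of the study (1 to 2 with 1 array left out). Retinoid and caudal regulators had 2 with quantile, cyclic loess, median centring, dim rows left out and an intensity trend and 0 at the thresholds of the study (1 to 2 with 1 array left out). TALE cofactors had 1 at those thresholds. PKNOX1 also lost its call with the block. Equally numbered arrays share only a number. Their deviations from the group means correlated at 0.055, 0.083 and -0.012, and not every array correlated best with its own number. The block took the calls over all rows from 6154 to 4262. Counts over all rows ran from 2914 to 6513 with 1 array left out. Of the 37 HOX rows, 12 lie below the median level of all rows. Signal over background was not used here.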
